A study of Mus musculus with 10 samples.

Results

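The genes described here are 10 transcription factors that set or maintain epithelial lineages in the prostate: TRP63, SOX2, SOX9, FOXA1, GATA2, GATA3, KLF4, KLF5, GRHL2 and GRHL3. They were taken by symbol, and all 10 were found in both deposited tables, among 24043 gene rows in the chemical experiment and 24016 usable rows in the genetic one. The samples were mouse prostate cancer organoids, cultures grown in 3-dimensional form from the dorsal-lateral lobe of C57BL/6 animals aged 8 weeks after birth. Every organoid, vehicle controls included, carried overexpressed cMYC, floxed EZH2 alleles and a Tamoxifen-inducible CreERT2 under the PSA promoter, and was kept in medium with 10 nM R1881, a synthetic androgen. EZH2 is the methyltransferase of Polycomb repressive complex 2, which places repressive methylation on histone H3. In the chemical experiment 3 libraries from organoids given 1 µM DZNep, a compound that lowers EZH2 activity, were compared with 3 given DMSO. In the genetic experiment 2 libraries from organoids given 1 µM Tamoxifen, which activates CreERT2, were compared with 2 given ethanol (EtOH). RNA was collected at 3 days. Nothing in the labels ties a replicate to its own culture or animal. The p-values therefore speak of the spread among these libraries, and that spread may be technical. CreERT2 acts only in cells in which the PSA promoter is active, and the labels do not give the share of such cells.

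The prostate epithelium has a basal layer, marked by p63 (the product of TRP63) and keratins such as KRT5 and KRT14, and a luminal layer, marked by KRT8 and KRT18. FOXA1 and the GATA factors open chromatin in luminal cells. SOX2 and SOX9 mark progenitor and basal populations, KLF4 and KLF5 direct epithelial growth and differentiation, and the grainyhead-like factors GRHL2 and GRHL3 maintain junctions and barrier formation. In stratified squamous epithelia, p63 starts the programme, keratins such as KRT1 and KRT10 appear as cells leave the basal layer, and KLF4 and GRHL3 act late.

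The promoters of 3 members that changed in the comparisons below are shown so that their base composition can be seen beside the expression values. RefSeq promoter windows (build GRCm38.p6) were matched for 6 of the 10 members, with 2 windows for Gata2. The entries not matched were Trp63, Sox9, Klf5 and Grhl2. Each sequence is the 250 bases before the annotated start, 5′ to 3′ on the gene's strand. Capitals mark exact matches, on either strand, to the E-box CACGTG bound by MYC (its own reverse complement), the GC box GGGCGG (or CCGCCC), the CCAAT box CCAAT (or ATTGG) and TATAAA (or TTTATA).
Klf4, chr4:55532476-55532725, minus strand: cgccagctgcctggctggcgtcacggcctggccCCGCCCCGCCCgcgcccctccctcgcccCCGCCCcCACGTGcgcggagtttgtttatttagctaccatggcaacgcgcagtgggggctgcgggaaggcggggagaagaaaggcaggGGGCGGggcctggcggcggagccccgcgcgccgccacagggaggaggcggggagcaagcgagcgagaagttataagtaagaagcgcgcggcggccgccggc
Sox2, chr3:34649745-34649994, plus strand: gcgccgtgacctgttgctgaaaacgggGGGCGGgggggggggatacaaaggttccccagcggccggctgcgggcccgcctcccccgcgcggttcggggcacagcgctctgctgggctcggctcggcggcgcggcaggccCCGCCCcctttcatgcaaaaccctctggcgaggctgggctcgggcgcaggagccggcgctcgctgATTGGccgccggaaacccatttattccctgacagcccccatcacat
Gata3, chr2:9878601-9878850, minus strand: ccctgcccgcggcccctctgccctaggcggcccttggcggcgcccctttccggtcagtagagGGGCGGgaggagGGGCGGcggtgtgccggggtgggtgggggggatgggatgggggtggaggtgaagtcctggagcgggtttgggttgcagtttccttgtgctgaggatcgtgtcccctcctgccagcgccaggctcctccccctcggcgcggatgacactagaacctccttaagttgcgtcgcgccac
The Klf4 window held 1 CACGTG, between 182 and 177 bases before the start, and 4 GC boxes. Among 32851 windows of the same length from all genes, 6.02% held CACGTG, 32.7% a GC box, 33.8% a CCAAT box and 12.4% TATAAA or its complement. The Sox2 window held 2 GC boxes and 1 CCAAT box, and the Gata3 window 2 GC boxes. CACGTG was in 1 of the 7 members' windows and TATAAA in 0 of 7. These promoters were rich in CpG, the dinucleotide that clusters at CpG islands, where Polycomb complexes commonly sit. There were 32 CpG in the Klf4 window, 27 in Sox2 and 19 in Gata3, against a median of 6 over all windows. Among members called in neither experiment, the Foxa1 window held 21, the 2 Gata2 windows 22 and 24, and the Grhl3 window 8. High counts were thus not limited to the called factors. A match describes the letters only.

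Each library listed from 15021 to 15404 genes above 0, and RPKM, reads scaled to gene length and to the total of mapped reads, summed to between 469455 and 512726 per library. The read depth behind these values is not known. EZH2, the floxed gene, measured 27.9 and 34.0 RPKM in the EtOH libraries and 32.0 and 33.2 in the Tamoxifen libraries, so the 2 groups overlapped. A value for the whole gene also holds exons outside the floxed part and therefore does not check the deletion. With DZNep, EZH2 went from 29.1 ± 1.78 to 23.8 ± 1.19 RPKM (SD, n = 3 each; limma adjusted p = 0.0142). Basal and luminal markers were present together: KRT5 averaged 2061 RPKM, KRT14 786, KRT8 156 and KRT18 257 in DMSO. PBSN, which encodes the prostate secretory protein probasin, was listed at 0 in every library. The 5 immune markers summed to between 12.8 and 19.5 RPKM over all libraries. Most of that was CD68, with group means of 13.0 to 17.3, while PTPRC was at 0 in every DMSO and EtOH library. The 6 neuroendocrine markers summed to between 4.45 and 7.96 RPKM, nearly all of it ENO2, with CHGA at 0 throughout. ENO2 went from 6.71 ± 0.655 to 4.54 ± 0.685 RPKM with DZNep (SD, n = 3 each; log2 difference -0.48, limma adjusted p = 0.0112). The 8 fibroblast and smooth muscle markers summed to between 3.01 and 4.28 RPKM in DMSO and between 8.28 and 9.48 in DZNep, with COL3A1 and DES at 0 in all libraries. In EtOH and Tamoxifen that sum lay between 2.74 and 4.20 RPKM.

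All 10 factors were expressed well above the limit of 1 RPKM that was used for testing. In DMSO, FOXA1, a pioneer factor of luminal cells, was the most abundant at 109.5 ± 1.88 RPKM, followed by KLF5 at 105.04 ± 5.76, KLF4 at 78.7 ± 1.34, GATA3 at 69.4 ± 5.01 and TRP63 at 48.2 ± 4.11 (SD, n = 3 each). The lower part of the order was GRHL2 at 42.0 ± 0.889, SOX9 at 30.5 ± 2.12, SOX2 at 20.6 ± 1.25, GATA2 at 12.3 ± 0.679 and GRHL3 at 8.50 ± 0.484 RPKM. FOXA1 therefore exceeded GRHL3 in level per unit of length by more than the spread of either. FOXA1 and KLF5 overlapped in their DMSO libraries, while each of the other 8 neighbouring pairs in that order was separated. Among the 11117 genes with a DMSO mean of at least 1 RPKM, FOXA1 was above 94.4%, TRP63 above 86.2% and GRHL3 above 38.7%. The order was the same in the other vehicle, EtOH, where KLF4 and GATA3 overlapped. It was also the same in DZNep, where FOXA1 and KLF5, and GRHL2 and SOX9, overlapped. In Tamoxifen the order differed at 1 place, with GATA3 at 60.9 ± 3.15 RPKM above KLF4 at 48.1 ± 0.952 (SD, n = 2 each), and their libraries did not overlap. TRP63 and GRHL2 overlapped there. Levels were compared within a table only, since the sources used here do not say if both tables share a normalization. TRP63 is a single value per gene, so the isoforms with and without the transactivation domain are not separated.

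**Figure D1:**
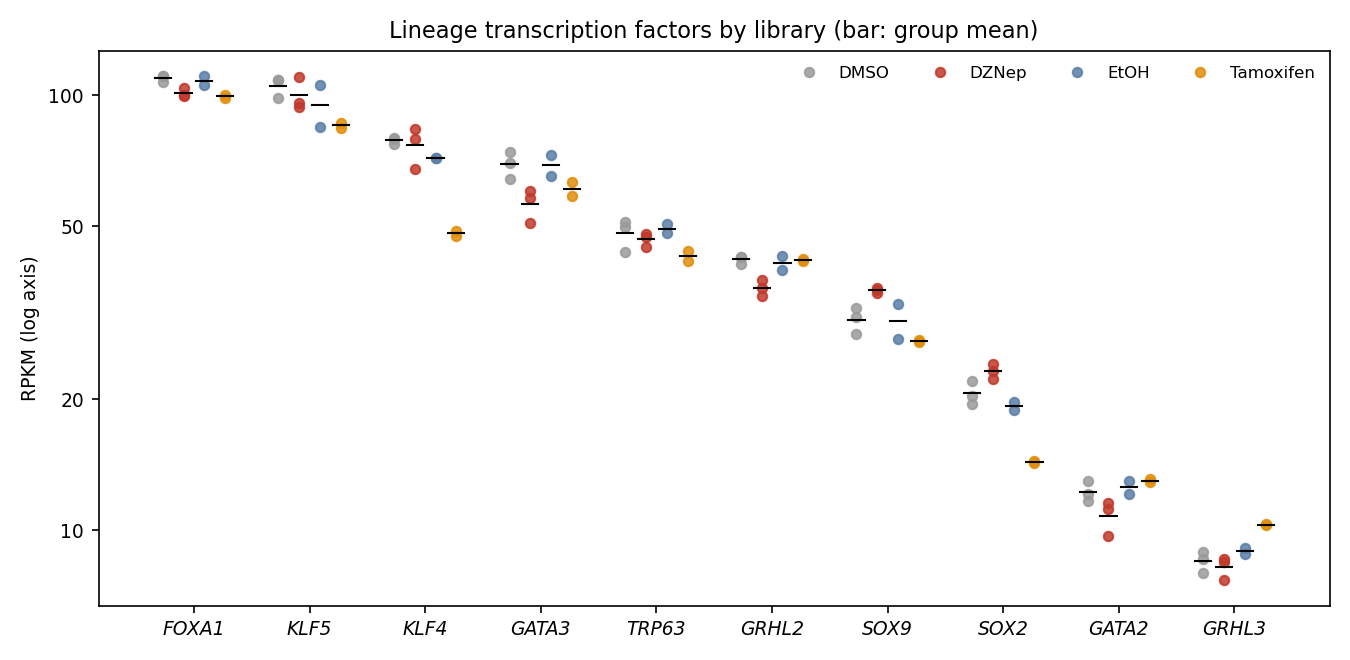
RPKM of each factor in each of the 10 libraries on a log axis, ordered by the DMSO mean; points are libraries and bars are group means. FOXA1 and KLF5 are highest and GRHL3 lowest in every group, and both Tamoxifen libraries of KLF4 (47.5 and 48.8 RPKM) and of SOX2 (14.3 and 14.4) lie below both EtOH libraries.

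The chemical experiment asked what DZNep did to these factors within 3 days. SOX9 rose, with a change in mean RPKM of 16.9%, and GATA3 and GRHL2 fell, with changes of -18.8% and -14.0%. The remaining 7 did not pass. With 3 of 10 called by limma (adjusted p under 0.05 over 11143 genes), the share was 30% beside 27.7% of all genes tested (16.6% higher and 11.1% lower), so it lay near the background. Without DMSO 2 or without DZNep 2, 0 of the 10 were called, and without DZNep 3, 1. The median difference of the 10 was -0.06 on the log2(RPKM + 1) scale, against 0.01 over all genes.

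SOX9, a progenitor factor of glandular epithelia, measured 28.2, 30.9 and 32.4 RPKM in DMSO and 36.1, 35.7 and 35.1 in DZNep. All DZNep libraries were above all DMSO libraries. The means were 30.5 ± 2.12 and 35.7 ± 0.491 RPKM (SD, n = 3 each). On the log2 scale SOX9 differed by 0.22 (SE 0.0578; limma adjusted p = 0.0258). That SOX9 call was lost without DMSO 2 (adjusted p = 0.0792), DZNep 1 (0.0637), DZNep 2 (0.0852) or DZNep 3 (0.0513), and after quantile normalization (0.0550).

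GATA3, which partners FOXA1 in luminal cells, measured 64.1, 70.0 and 74.1 RPKM in DMSO and 60.2, 58.1 and 50.7 in DZNep. Here all DZNep libraries were below all DMSO libraries, with DZNep 3 the lowest. The log2 difference of GATA3 was -0.30 (SE 0.0792; limma adjusted p = 0.0274), with means of 69.4 ± 5.01 and 56.3 ± 4.97 RPKM (SD, n = 3 each). The GATA3 call was lost without DMSO 2 (0.0914), DMSO 3 (0.0767), DZNep 2 (0.0635) or DZNep 3 (0.0639), and with no filter on low genes (0.0582). In the reference annotation GATA3 shares exons with an antisense gene, Gm13256, and with 9230102O04Rik on the same strand, and reads of these cannot be told apart here.

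GRHL2, an activator of E-cadherin and claudin genes, measured 41.0, 42.5 and 42.5 RPKM in DMSO and 37.7, 36.1 and 34.5 in DZNep, again without overlap. Its log2 difference was -0.21 (SE 0.0496; limma adjusted p = 0.0172), with means of 42.0 ± 0.889 and 36.1 ± 1.59 RPKM (SD, n = 3 each). The GRHL2 call was lost without DMSO 2 (0.0768) or DZNep 2 (0.0650). An antisense gene, Gm16136, overlaps exons of GRHL2, and the sources used here do not say if strand entered the quantification.

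SOX2, FOXA1 and GATA2 had DZNep and DMSO libraries that did not overlap but missed the threshold. SOX2 measured 19.6 to 22.0 RPKM in DMSO and 22.2 to 24.1 in DZNep (log2 difference 0.16, 95% interval 0.029 to 0.30; limma adjusted p = 0.0694). It passed without DMSO 1 (0.0284) and when both experiments were fitted together (0.0383). FOXA1 measured 107.4 to 110.7 RPKM in DMSO and 99.8 to 104.02 in DZNep (-0.11, adjusted p = 0.102). GATA2, a zinc finger factor of luminal cells, measured 11.7 to 13.0 and 9.68 to 11.5 RPKM (-0.17, adjusted p = 0.113). In all, 2 members were higher and 4 lower without overlap, where 26.1% and 19.4% of all genes were (45.5% in both directions together).

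TRP63, KLF4, KLF5 and GRHL3 overlapped between DZNep and DMSO. Their log2 differences were -0.04 for TRP63, -0.04 for KLF4, -0.07 for KLF5 and -0.04 for GRHL3, with limma adjusted p between 0.499 and 0.709. The 95% interval of TRP63, the basal master regulator, ran from -0.20 to 0.11. That of KLF4 ran from -0.22 to 0.14, and its DZNep libraries spanned 67.5 to 83.4 RPKM around a DMSO range of 77.2 to 79.7. A p that misses the threshold does not show that these genes were the same in both groups.

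The genetic comparison asked the same of Tamoxifen against EtOH. KLF4 and SOX2 fell, and 0 members rose. Those 2 of 10 made 20% of the members, where 2.07% of the 11123 genes tested were called by limma (adjusted p under 0.05) and 1.38% were called lower. The members were chosen with earlier results of these data known, so this share is not an independent test. The median of the 10 was -0.14, against 0.04 over all genes.

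KLF4, a zinc finger factor of late epithelial differentiation, measured 71.7 and 71.7 RPKM in EtOH and 47.5 and 48.8 in Tamoxifen. Both Tamoxifen libraries lay far below the EtOH pair, whose values were nearly equal. The means were 71.7 ± 0.0534 and 48.1 ± 0.952 RPKM (SD, n = 2 each), a change of -32.9%. The log2 difference of KLF4 was -0.57 (SE 0.0524; limma adjusted p = 0.0263), and only 2.06% of all genes tested had a larger one in either direction.

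SOX2, a factor of basal and neuroendocrine cells, measured 18.9 and 19.7 RPKM in EtOH and 14.3 and 14.4 in Tamoxifen. The Tamoxifen libraries were both lower, by 25.7% of the mean. Its log2 difference was -0.40 (SE 0.0524; limma adjusted p = 0.0381), and 4.71% of genes had a larger one. SOX2 lies within Sox2ot on the same strand with no shared exon, and SOX2OT was listed at 0.179 ± 0.0165 RPKM in EtOH and 0.172 ± 0.0637 in Tamoxifen (SD, n = 2 each).

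These 2 calls rested on few libraries. Without Tamoxifen 1 the adjusted p was 0.132 for KLF4 and 0.220 for SOX2, and without Tamoxifen 2 it was 0.170 and 0.281, with the remaining library assumed to vary like the EtOH pair. The log2 differences themselves ranged from -0.59 to -0.55 for KLF4 and from -0.43 to -0.38 for SOX2 when any 1 library was left out. With no filter on low genes both had an adjusted p of 0.117, and only 1 gene was called in all. In a limma fit with no mean trend the SOX2 call was lost (adjusted p = 0.0511), while that of KLF4 was kept (0.0359).

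Of the other 8 factors, GRHL3 was higher in both Tamoxifen libraries, at 10.3 and 10.4 RPKM against 9.12 and 8.81 in EtOH (log2 difference 0.18, limma adjusted p = 0.126). TRP63, FOXA1, GATA3 and SOX9 were lower in both. TRP63 measured 50.6 and 48.2 RPKM in EtOH and 41.6 and 43.9 in Tamoxifen (-0.20, 95% interval -0.35 to -0.05; adjusted p = 0.128). FOXA1 differed by -0.12 (0.255), GATA3 by -0.18 (0.224) and SOX9 by -0.14 (0.366). KLF5, GATA2 and GRHL2 overlapped, and the difference of GRHL2 (0.02) was -0.0097 after trimmed mean scaling. KLF5 was 105.5 RPKM in EtOH 1 but 84.4 in EtOH 2, beside 84.3 and 86.5 in Tamoxifen. Its difference of -0.14 (adjusted p = 0.442) was -0.30 (0.0475) without EtOH 2 and 0.02 (0.888) without EtOH 1. In all, 6 members were lower and 1 higher without overlap, where 23.2% and 36.6% of all genes were (59.9% in both directions together).

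**Figure D2:**
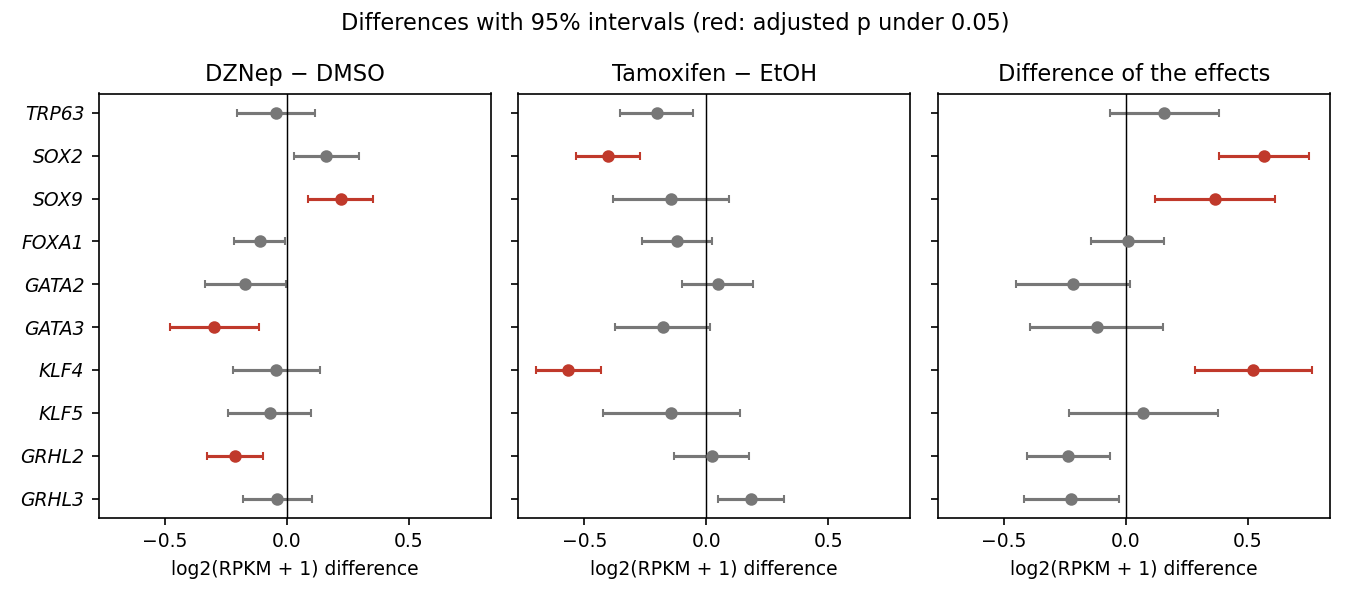
Differences in log2(RPKM + 1) with 95% intervals for each factor in the chemical experiment, the genetic experiment, and for the DZNep effect minus the Tamoxifen effect; red marks an adjusted p under 0.05. SOX9, GATA3 and GRHL2 are red for DZNep, SOX2 and KLF4 for Tamoxifen, and SOX2, SOX9 and KLF4 for the difference.

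Whether the experiments differed was tested directly, as the DZNep effect minus the Tamoxifen effect over all 10 libraries. SOX2, KLF4 and SOX9 passed, each more positive with DZNep than with Tamoxifen, so that 3 of 10 were called where 19.9% of 10994 genes were (limma, adjusted p under 0.05) with 10.7% in that direction and 9.2% in the other. For SOX2 the effects were 0.16 and -0.40, a difference of 0.57 (SE 0.0831; adjusted p = 0.00180). For KLF4 they were -0.04 and -0.57, a difference of 0.52 (SE 0.108; adjusted p = 0.00962). Both calls held when any 1 library was left out, with adjusted p up to 0.0117 for SOX2 and 0.0382 for KLF4. For SOX9 the effects were 0.22 and -0.14, a difference of 0.37 (SE 0.110; adjusted p = 0.0418). The SOX9 call was kept without DMSO 3 or EtOH 2. It was lost without each of the other 8 libraries, with adjusted p up to 0.141 (without EtOH 1), after quantile normalization (0.0642) and with no filter (0.0658).

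GRHL2 did not pass for the difference (-0.23, adjusted p = 0.0550) but did without DZNep 1 (0.0425) or EtOH 2 (0.0413). FOXA1 had nearly equal effects of -0.11 and -0.12, and the 95% interval of their difference ran from -0.14 to 0.16. For GATA3 the effects were -0.30 and -0.18 and the interval of the difference ran from -0.39 to 0.15. Each experiment had its own vehicle, so no library enters both effects.

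Ratios between related factors within a library do not depend on how that library was scaled. KLF4 over KLF5 was 0.765 ± 0.121 in EtOH and 0.564 ± 0.000587 in Tamoxifen (SD, n = 2 each), with 0.679 as the lower EtOH value. In the chemical experiment it was 0.751 ± 0.0482 in DMSO and 0.766 ± 0.0524 in DZNep (SD, n = 3 each), with overlap. GATA3 over GATA2, the pair of GATA factors of luminal cells, was 5.66 ± 0.138 in DMSO and 5.22 ± 0.169 in DZNep. The DZNep libraries, at most 5.37, lay below the lowest DMSO library at 5.50. In the genetic experiment it was 5.52 ± 0.699 in EtOH and 4.69 ± 0.295 in Tamoxifen (SD, n = 2 each), again lower without overlap. GRHL2 over GRHL3 was 4.95 ± 0.187 in DMSO and 4.38 ± 0.113 in DZNep. It was 4.60 ± 0.360 in EtOH and 4.05 ± 0.0403 in Tamoxifen, so it too was lower without overlap in both treatments. FOXA1 over TRP63, a luminal factor over a basal one, was 2.28 ± 0.164 in DMSO and 2.176 ± 0.0650 in DZNep, with overlap. In the genetic experiment that ratio was 2.19 ± 0.00351 in EtOH and 2.33 ± 0.0587 in Tamoxifen, higher without overlap. SOX9 over SOX2 was 1.49 ± 0.189 in DMSO and 1.54 ± 0.0757 in DZNep, with overlap. It was 1.57 ± 0.248 in EtOH and 1.90 ± 0.0328 in Tamoxifen, also higher without overlap. Among single genes, 45.5% of those tested in the chemical experiment and 59.9% in the genetic one had groups that did not overlap. These ratios were not tested.

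**Figure D3:**
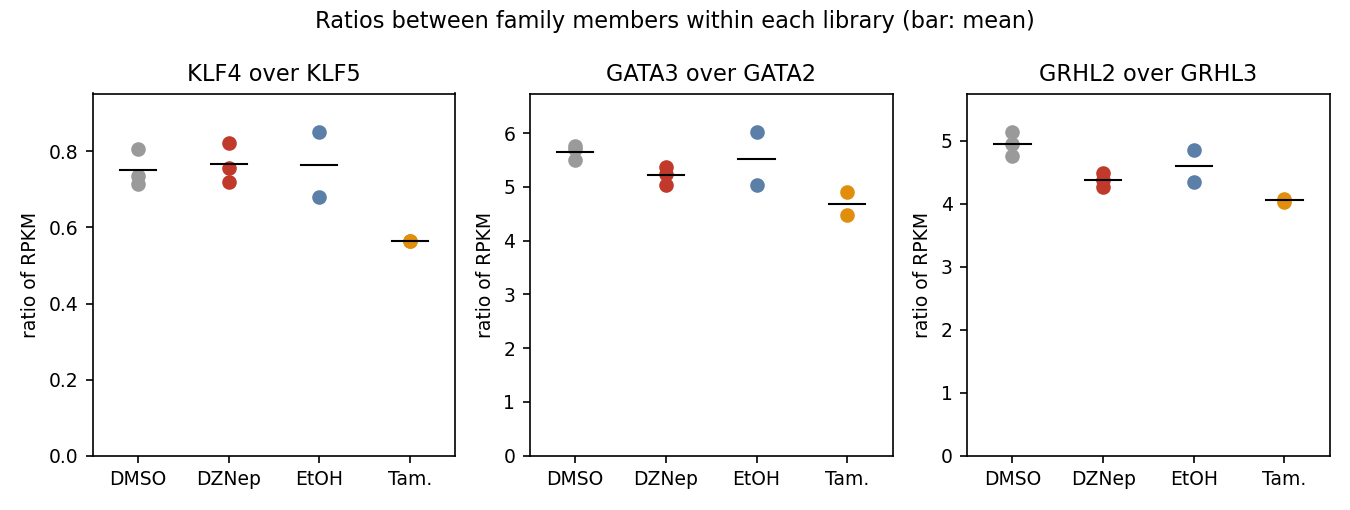
Ratio of RPKM between family members within each library, with bars for group means and axes from 0. KLF4 over KLF5 is 0.564 on average in Tamoxifen, below every other library. GATA3 over GATA2 and GRHL2 over GRHL3 are lower in each treatment than in its vehicle.

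Lists of genes associated with these factors or with their cell layers gave the wider context. They mix layer markers with possible targets, and regulation by the factors was not tested. In the list of squamous differentiation genes associated with KLF4 and GRHL3, 17 of 26 were tested with DZNep, of which 10 rose and 2 fell (median 0.46, against 0.01 over all genes). That is 70.6% called, where 27.7% of all genes were. SCEL, counted among the rises, measured 0.701, 0.763 and 0.942 RPKM in DMSO and 1.56, 1.39 and 1.49 in DZNep. It passed the filter of 1 RPKM only through its DZNep libraries, so the filter favoured that call. SPRR1B also averaged under 1 RPKM in DMSO, and neither gene was tested with Tamoxifen. With Tamoxifen 15 were tested, of which 0 rose and 8 fell (median -0.53, against 0.04), or 53.3% called, where 2.07% of all genes were. KRT13, a keratin of the upper layers of mucosal epithelium, measured 60.1, 64.4 and 58.2 RPKM in DMSO and 185.5, 174.9 and 165.7 in DZNep (log2 difference 1.51, limma adjusted p = 5.45e-06). It measured 61.3 and 59.5 RPKM in EtOH and 21.9 and 18.4 in Tamoxifen (-1.54, adjusted p = 0.0128). KRT13 was thus far above its vehicle with DZNep and far below it with Tamoxifen, and the difference of 3.05 passed (SE 0.110; adjusted p = 5.94e-07). With DZNep, KRT10 rose by 1.59, KRT1 by 1.41 and KRT16 by 0.88. The 2 that fell with DZNep were LOR and PPL. LOR measured 2.88, 2.33 and 2.68 RPKM in DMSO and 1.92, 1.95 and 1.78 in DZNep. PPL measured 35.8, 40.8 and 40.0 RPKM in DMSO and 33.5, 33.2 and 28.6 in DZNep. With Tamoxifen, KRT16 fell by 0.98 on the log2 scale, TGM1, the transglutaminase that cross-links the cornified envelope, fell by 0.66 and KRT4 fell by 0.70. KRT10 (-0.61, adjusted p = 0.118) and KRT1 (-0.51, adjusted p = 0.107) did not pass with Tamoxifen. Of the 15 genes tested in both experiments, 10 were higher with DZNep and lower with Tamoxifen, 5 were lower in both, and 0 had the remaining patterns. Over all 10994 genes, 2302 had the first pattern and 2132 were lower in both. Without Tamoxifen 1 only 3 of the 15 fell, and without Tamoxifen 2 only 2. The list was drawn up with earlier results of these data known.

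**Figure D4:**
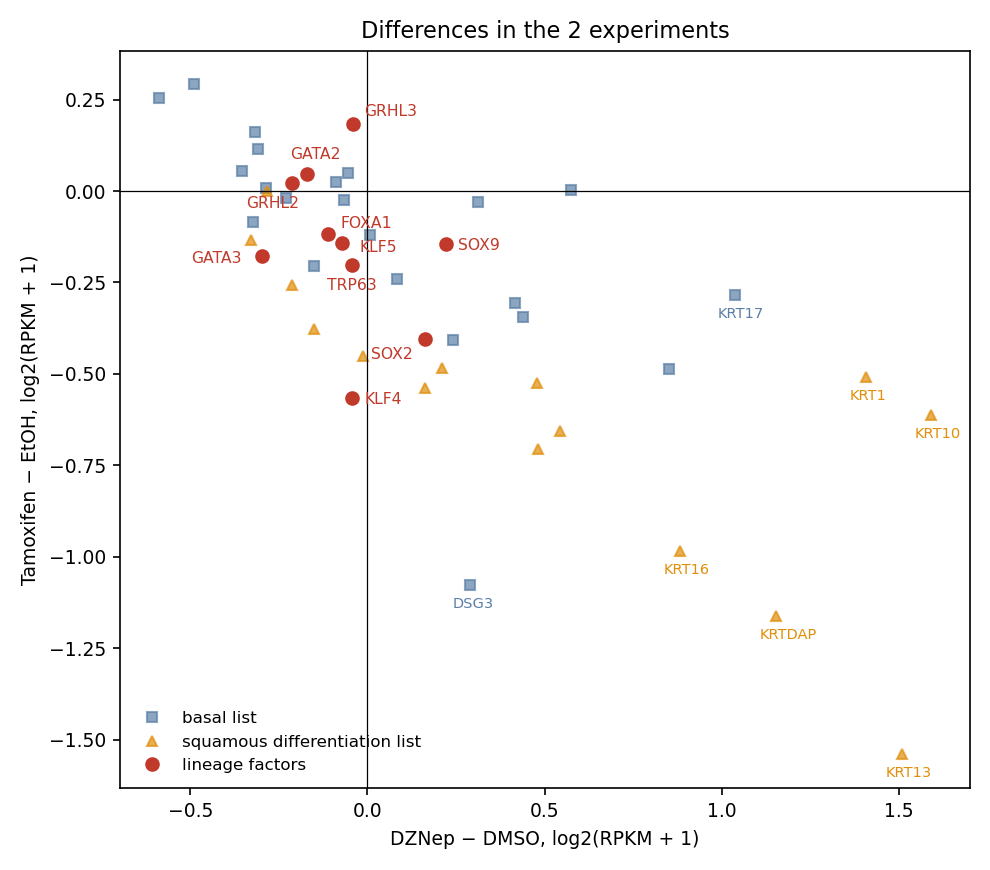
Log2 difference with Tamoxifen against log2 difference with DZNep for the 10 factors (circles), the basal list (squares) and the squamous list (triangles); lines mark 0. KRT13 lies at 1.51 and -1.54, while the 10 factors lie between -0.30 and 0.22 with DZNep and between -0.57 and 0.18 with Tamoxifen.

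Basal genes associated with p63 moved in both directions with DZNep, while TRP63 itself was -0.04. Of 22 tested, 8 rose and 8 fell (median -0.06), or 72.7% called, where 27.7% of all genes were (16.6% higher and 11.1% lower). KRT14 rose by 0.85, KRT17 by 1.04 and DST, a linker of keratin filaments to hemidesmosomes, by 0.57, while the integrin subunit ITGA3 fell by 0.59 on the log2 scale. With Tamoxifen 0 rose and 2 fell (9.09% called, where 2.07% of all genes were; median -0.03): DSG3, a desmosomal cadherin, by 1.08 and KRT14 by 0.49, where TRP63 was -0.20. Of the 16 luminal genes tested, 5 rose and 1 fell with DZNep (37.5% called, where 27.7% of all genes were; median 0.03). Among them PSCA, a cell surface antigen, went from 628 to 896 RPKM and the keratin KRT8 from 156 to 213, and FKBP5, an androgen-induced co-chaperone, from 41.8 to 35.1. Of 13 junction genes associated with GRHL2, 2 fell and 0 rose with DZNep (median -0.07). That is 15.4% called, below the 27.7% of all genes, so the count is no result about the list. They were the tight junction claudins CLDN7 (-0.40) and CLDN3 (-0.27). Without DMSO 2 only 1 fell. With Tamoxifen 0 of 13 passed limma. Of the 13, 8 had an unadjusted p under 0.05, a larger share than the 2831 of all 11123 genes. Their median was 0.13, against 0.04 over all genes.

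Among relatives of the 10 factors in their own families, 20 of 27 were tested. With DZNep 5 fell and 0 rose (median -0.06). That is 25% called, near the 27.7% of all genes, so the count is no result about the relatives. They were the SOX genes SOX12 (-0.47), SOX21 (-0.28), SOX7 (-0.40) and SOX15 (-0.46), opposite in sign to SOX9, and UBP1 (-0.25), a distant relative of the grainyhead-like factors. SOX15 was the most abundant of these, going from 39.1 to 27.9 RPKM (limma adjusted p = 0.0149). Without DMSO 2 only 3 of the relatives fell. With Tamoxifen 0 of 20 passed limma, and 6 had an unadjusted p under 0.05, near the share of all genes (2831 of 11123), with a median of 0.00.

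Of 22 other epithelial transcription factors tested, 6 rose and 2 fell with DZNep (36.4% called, where 27.7% of all genes were; median 0.00). Among the rises were SNAI2 (0.30), a repressor of epithelial genes that basal cells also express, ZFP750 (0.50), a p63 target of terminal epidermal differentiation, MSX2 (0.23), HOXB13 (0.20), a prostate homeobox factor, and MAF (0.30). The falls were TFAP2A (-0.29) and MSX1 (-0.37). MSX1 averaged under 1 RPKM in DZNep and passed the filter only through its DMSO libraries. Without DMSO 2, 4 of the 8 calls were made, and without DZNep 1 or DZNep 2, 5.

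Markers of urothelium, which also expresses GATA3, KLF5, TRP63 and GRHL3, were higher with DZNep: 3 of 4 tested rose, where 16.6% of all genes did, and 0 fell. The 4 summed to between 71.3 and 74.1 RPKM in DMSO and between 96.2 and 101.8 in DZNep. Only 1 rose without DMSO 2, DMSO 3, DZNep 1 or DZNep 2. In Tamoxifen the sum was 65.5 to 67.9 RPKM, against 74.0 to 80.2 in EtOH. There 0 of 4 passed limma, and 2 had an unadjusted p under 0.05, where 2831 of 11123 genes did. In the fibroblast list only 3 of 12 were tested with DZNep. ACTA2 rose from 0.692 to 2.62 and DCN from 2.77 to 6.11 RPKM, and FBLN1 fell. ACTA2 passed the filter of 1 RPKM only through its DZNep libraries, and FBLN1 only through its DMSO libraries. The count is therefore no result about the list, beside 16.6% of all genes that rose. The part of these cell types in the values of the 10 factors was not tested. Fewer cells of a type and less RNA per cell cannot be told apart in such bulk libraries.

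For each factor called in an experiment, the genes with the most similar pattern over the 10 libraries were found by the root mean square difference of log2(RPKM + 1) values, each taken from its own vehicle mean. Among 10994 genes, MACC1 and DRAM2 were nearest to SOX2, at 0.0489 and 0.0508, where SOX2's own root mean square from its vehicles was 0.207. SORBS2 (0.0299) and ARL16 (0.0433) were nearest to SOX9, and ZBTB7C (0.0720) and FADS3 (0.0739) to KLF4. GATSL2 (0.0391) and TFAP2A (0.0451) were nearest to GATA3. TFAP2A, an epithelial transcription factor of the other list, measured 12.6, 13.2 and 13.3 RPKM in DMSO and 11.0, 10.6 and 9.74 in DZNep. FAM53C (0.0221) and TMEM110 (0.0268) were nearest to GRHL2. This is likeness of values only.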

How the data were processed

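RNA was measured by RNA-seq in 10 libraries (TRIzol total RNA, stranded mRNA kit, per the labels' protocols). The authors deposited 1 table per experiment with values as log2 RPKM, per the file headers. Reads were processed with bcl2fastq 2.18, STAR and Cufflinks on build mm9, per the submitters' processing notes. The sources used here do not give the use of strand or the offset inside the log. No deposited value is below 0, which fits an offset of 1, so RPKM was taken as 2 to the power of the deposited log2 value, less 1. Genes averaging 1 RPKM or more in an experiment were tested by limma (version 3.58.1, R 4.3.3) with its moderated test and a mean trend (Benjamini-Hochberg adjustment over all genes tested, threshold 0.05), each experiment alone. The difference of effects was a contrast in a fit of 4 group means over 10 libraries, on genes past the filter in both tables. The fit was checked on simulated data. Named genes are all 10 members, EZH2, and of each list up to 4 called genes of smallest p in an experiment (up to 8 for relatives and other transcription factors). LOR and PPL are also named, as the 2 squamous genes that fell with DZNep. SCEL and SPRR1B are named for how they passed the filter. Likeness takes the nearest 2 genes for each called member. The members and lists were chosen with earlier results of these data known. Alternatives were pseudocount 0.1, a robust fit, no trend, no filter or one at 5 RPKM, trimmed mean scaling, quantile normalization, a joint fit, a replicate block and leaving out each library. RPKM holds no read depth, so no counting interval is given. Some results, among them those of the luminal and other transcription factor lists with Tamoxifen, are not reported here.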

Additional observations from a re-analysis of the deposited data

Results flagged for a closer look

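For 3 factors the DZNep effect and the Tamoxifen effect differed in a direct test (limma, Benjamini-Hochberg adjusted over 10994 genes, threshold 0.05), where 19.9% of all genes did. SOX2 differed by 0.57 on the log2(RPKM + 1) scale (95% interval 0.38 to 0.75, adjusted p = 0.00180). KLF4 differed by 0.52 (0.28 to 0.76, adjusted p = 0.00962). SOX9 differed by 0.37 (0.12 to 0.61, adjusted p = 0.0418), a call that was lost in 8 of the 10 fits that left out a library, with no filter (0.0658) and after quantile normalization (0.0642). For SOX2 and SOX9 the estimated effects had opposite signs, while for KLF4 both were negative. For each gene 1 of the 2 effects was not called by limma. These were SOX2 with DZNep (adjusted p = 0.0694), SOX9 with Tamoxifen (0.366) and KLF4 with DZNep (0.709). The DZNep effect of KLF4 was -0.04 and turned positive without DZNep 3. DZNep and Tamoxifen libraries came from separate experiments with 3 and 2 libraries a group, and why the effects differ was not tested.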

How the results depend on the processing

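Of the 10 factors, 3 were called with DZNep, 2 with Tamoxifen and 3 for the difference of effects, among 3088, 230 and 2190 genes. Leaving out 1 library at a time gave 0 to 4 and 0 to 3 factors in the DZNep and Tamoxifen comparisons, and 1522 to 3359, 37 to 977 and 924 to 2326 genes in the DZNep, Tamoxifen and difference tests. The lowest gene counts came without DMSO 2 (1522) and DZNep 2 (1755) for DZNep and without Tamoxifen 2 (37) and Tamoxifen 1 (50) for Tamoxifen, whose highest came without EtOH 2 (977). For the difference they were 924 without Tamoxifen 2, 1289 without Tamoxifen 1, 1316 without EtOH 1 and 1393 without DMSO 2. The Tamoxifen calls became 0 factors and 1 gene with no filter and 1 factor with no trend, and the gene count became 348 with trimmed mean scaling, 646 with a robust fit and 1053 in the joint fit. In the chemical experiment the libraries were checked for pairing by equal replicate numbers, and no clear pairing was seen. The correlations of deviations were 0.059, 0.059 and -0.068, and DMSO 1 and DMSO 3 correlated best with DZNep libraries of another number. Such small values from 3 libraries a group do not exclude a shared culture or batch. In the genetic experiment the correlation was 0.040 for equal numbers and -0.040 for others. With 2 libraries a group the deviations mirror each other, so this check cannot decide pairing there. With a replicate block the adjusted p was 0.0812 for SOX9, 0.0878 for GATA3 and 0.0751 for GRHL2 with DZNep, and 0.0726 for SOX9 in the difference. The DZNep counts were then 0 factors and 1610 genes, the Tamoxifen gene count 878 and the difference count 1226.

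Among the 10 factors, signs turned for TRP63, KLF4 and GRHL3 with DZNep, GRHL2 and KLF5 with Tamoxifen, and FOXA1 and KLF5 for the difference, none of them called there. With 1 library left out at a time, the DZNep difference of TRP63 ran from -0.11 to 0.000397 (positive without DMSO 3), of KLF4 from -0.11 to 0.045 and of GRHL3 from -0.080 to 0.0058 (both positive without DZNep 3). With Tamoxifen, GRHL2 was -0.0097 with trimmed mean scaling and ran from -0.032 (without EtOH 1) to 0.075 (without EtOH 2), and KLF5 from -0.30 (without EtOH 2) to 0.017 (without EtOH 1). For the difference, FOXA1 ran from -0.024 (without EtOH 1) to 0.041 (without EtOH 2) and KLF5 from -0.088 (without EtOH 1) to 0.23 (without EtOH 2). The cause was not tested. The genetic experiment has 2 libraries a group, which limits its precision, and read depth is not known from RPKM.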
